A study of Mus musculus with 8 samples.

Results

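H3K4me3, a histone mark carried by the nucleosomes around the start sites of active and poised genes, was examined at the genes of the YAP, TAZ and TEAD pathway in sorted mouse lung tumor cells. The members were the coactivator genes *Yap1* and *Wwtr1* (which encodes TAZ), the TEAD transcription factor genes *Tead1*, *Tead2*, *Tead3* and *Tead4*, the inhibitory kinase genes *Lats1* and *Lats2*, their upstream scaffold *Nf2*, and *Vgll4*, a competitor of YAP and TAZ. All peaks listed under these 10 symbols in the deposited H3K4me3 table were taken, which gave 24 of 35486 listed peaks. They belonged to 9 of the 20871 genes with a listed peak, because no peak was listed under *Tead1*. *Vgll4* held 12 of the 24 peaks, *Wwtr1*, *Tead3*, *Tead4* and *Lats2* held 2 each, and *Yap1*, *Tead2*, *Lats1* and *Nf2* held 1 each. Of the 24 peaks, 12 lay within 1 kb of a start site and 12 lay farther away.

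The mark was measured by a method that the sources name CUT&Tag. As the methods describe it, an antibody directed a nuclease to cut and release the chromatin that carries the mark. KL mice, which carry Lkb1fl/fl with the other allele of the KL tumor model, were compared with KLG4m/m mice, which carry Gpx4m/m in addition, so both groups shared the alleles that give rise to the tumors. C57BL/6 mice aged 8 to 10 weeks received Ad-Cre through the nose, tamoxifen over 2 weeks from week 5 onward, and then 3 weeks of rest, so that cells of both groups were taken 10 weeks after Ad-Cre. In Gpx4m/m mice, Cre releases a tamoxifen-dependent Dre recombinase, driven by the CAG promoter within the *Gpx4* locus, and Dre then removes rox-flanked exons of *Gpx4*, so that the deletion is confined by design to Cre-exposed cells. The cells were sorted as CD45-CD31-EpCAM+, and each group had 2 libraries (KL replicates 1 and 2, KLG4m/m replicates 3 and 4). The figure legend of the study gives 2 mice per group, which matches the 4 libraries in the labels. Its methods speak of 3 mice in total. Because the sources differ, the p-values below may not measure the spread between mice. They rest on counting error and on a spread between libraries that may in part be technical. That spread was small (common dispersion 0.00133) and was estimated largely over all peaks, not at each peak alone. The libraries held 3244495 to 3463731 reads in the listed peaks. The 1 listed *Gpx4* peak covers the start site and not the removed exons, so it does not check the deletion. It had 242 and 236 reads in KL and 304 and 301 in KLG4m/m.

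In the Hippo pathway, NF2 and other scaffolds at the cell cortex activate the kinases MST1 and MST2 (*Stk4* and *Stk3*), which activate LATS1 and LATS2. LATS kinases phosphorylate YAP and TAZ and hold them outside the nucleus. Unphosphorylated YAP and TAZ bind TEAD factors, which contact DNA through the core GGAATG, and switch on growth and matrix genes, while VGLL4 occupies TEAD in their place. In the lung the pathway is known for its roles in airway and alveolar growth and repair, and *Lats1* and *Lats2* are themselves reported targets of YAP in a feedback loop.

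The start-site sequences of the members are shown first, because 3 of the member promoters carried less H3K4me3 in KLG4m/m and the TEAD core is the stretch that the pathway's DNA-binding proteins contact. Windows of 300 bases, from 250 before to 50 after each RefSeq start site on GRCm38.p6, were matched by symbol. They were found for 8 of the 10 members, 13 windows in all, and not for *Tead1* or *Tead4*. The letters GGAATG or their reverse complement CATTCC stood in 7 of the 13 windows, belonging to 5 of the 8 genes, against 14.7% of all 32851 windows and 16.6% of the 27025 genes with a window. Some of these windows overlap, as in *Wwtr1* and *Tead3*, and the matches are a description of the letters and not of bound sites. The AP-1 motif TGANTCA reads the same on both strands and stood in 0 of the 13 member windows and in 7.81% of all windows. The windows below run 5′ to 3′ on the gene's own strand, with the TEAD core in capitals. They belong to both LATS genes, whose promoters were lower, to both coactivator genes and to *Tead3*, whose window holds the most matches. The windows are chr10:7680959-7681258 (plus strand) for *Lats1*, chr14:57746074-57746373 (minus) for *Lats2*, chr9:8004547-8004846 (minus) for *Yap1*, chr3:57575827-57576126 (minus) for *Wwtr1* and chr17:28350551-28350850 (minus) for *Tead3*.
Lats1: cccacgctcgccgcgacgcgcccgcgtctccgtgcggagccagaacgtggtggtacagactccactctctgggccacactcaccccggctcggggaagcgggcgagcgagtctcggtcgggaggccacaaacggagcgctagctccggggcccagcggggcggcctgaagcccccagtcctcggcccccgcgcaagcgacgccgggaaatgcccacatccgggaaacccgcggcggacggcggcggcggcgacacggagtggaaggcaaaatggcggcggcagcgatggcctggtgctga
Lats2: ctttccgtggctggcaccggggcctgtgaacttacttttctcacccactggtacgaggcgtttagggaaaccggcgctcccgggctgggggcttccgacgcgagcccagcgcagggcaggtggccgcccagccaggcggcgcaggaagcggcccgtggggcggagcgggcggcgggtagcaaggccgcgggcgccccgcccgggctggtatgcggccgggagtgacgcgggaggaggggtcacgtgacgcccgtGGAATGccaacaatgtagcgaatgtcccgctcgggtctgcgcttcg
Yap1: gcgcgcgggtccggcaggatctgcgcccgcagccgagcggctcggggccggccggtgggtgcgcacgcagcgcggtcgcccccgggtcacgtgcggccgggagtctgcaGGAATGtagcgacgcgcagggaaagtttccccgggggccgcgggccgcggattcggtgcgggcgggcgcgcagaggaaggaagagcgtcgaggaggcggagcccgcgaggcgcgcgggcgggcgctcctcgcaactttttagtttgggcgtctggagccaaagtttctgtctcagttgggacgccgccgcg
Wwtr1: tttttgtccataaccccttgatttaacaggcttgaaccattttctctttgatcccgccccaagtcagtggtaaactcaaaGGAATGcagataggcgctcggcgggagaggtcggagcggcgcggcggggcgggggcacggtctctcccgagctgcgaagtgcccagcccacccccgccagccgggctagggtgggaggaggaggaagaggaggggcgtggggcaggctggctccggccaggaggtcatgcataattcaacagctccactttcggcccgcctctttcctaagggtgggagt
Tead3: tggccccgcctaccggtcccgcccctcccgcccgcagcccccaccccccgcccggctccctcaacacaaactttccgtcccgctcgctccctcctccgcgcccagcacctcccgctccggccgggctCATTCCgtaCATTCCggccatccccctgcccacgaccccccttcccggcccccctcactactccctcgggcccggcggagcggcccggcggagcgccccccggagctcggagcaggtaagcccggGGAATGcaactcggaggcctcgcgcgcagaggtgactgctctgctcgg
The *Lats1* window held no TEAD core, whereas the *Lats2* window held 1, which began at base 5 after the start site. In *Yap1* the core began at base -141 and in *Wwtr1* at base -170 relative to the start site. *Tead3* held 3 matches, at -123, at -114 and at 3, of which the first pair stood side by side with 3 bases between them. The *Lats1*, *Lats2* and *Yap1* windows were rich in CpG, with 42, 37 and 49 CpG dinucleotides against a median of 7 over all windows. *Wwtr1* had 19 and the *Tead3* window 34. The peaks in the deposited table are not placed on GRCm38, so these letters were not laid under the peaks. By the table's own distances, the strongest peaks of *Lats2* and *Wwtr1* spanned a start site, the *Tead3* peak lay at -90 bp, and the *Lats1* and *Yap1* peaks began 156 bp and 855 bp after it.

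The comparison of KLG4m/m with KL asked how the loss of GPX4, the enzyme that reduces phospholipid hydroperoxides, changed H3K4me3 at these genes. Of the 24 member peaks, 3 were lower in KLG4m/m and 1 was higher by edgeR's quasi-likelihood test (adjusted p under 0.05 over all listed peaks), and 20 passed in neither direction. Over all listed peaks, 5.52% were lower and 3.10% higher. The 3 lower peaks were the promoter peaks of *Lats1*, *Lats2* and *Tead4*, and the higher one was an intronic peak of *Vgll4*. The median over the 24 peaks was -0.02 on the log2 scale, against 0.01 over all listed peaks. The 2 groups did not overlap at 8 member peaks in the lower direction and at 6 in the higher direction, where 26.6% and 27.5% of all listed peaks did so.

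The strongest peak within 1 kb of a start site was taken for each of the 9 genes, so that *Vgll4* did not weigh more than the others. The mean level of these peaks ran from 24.3 CPM at *Tead2* to 68.0 CPM at *Vgll4* (CPM, counts scaled to a common total of reads in listed peaks after TMM scaling), and all member peaks are 400 bp wide, so levels can be compared. Of the 9, 3 were lower and none was higher, with a median log2 fold change of -0.34 against 0.00 over the 17073 peaks within 1 kb of a start site. That background counts every such peak of a gene. Over all 12 member peaks within 1 kb the median was -0.05, so the value of -0.34 depends on taking 1 peak per gene. Among those 17073 peaks 8.43% were lower and 2.89% higher. Among the 6722 of them with a mean level in the members' range the shares were 11.7% and 2.98%. With only 9 promoters, a single promoter moves the members' share by about as much as these backgrounds, and no test of the list was made.

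**Figure D1:**
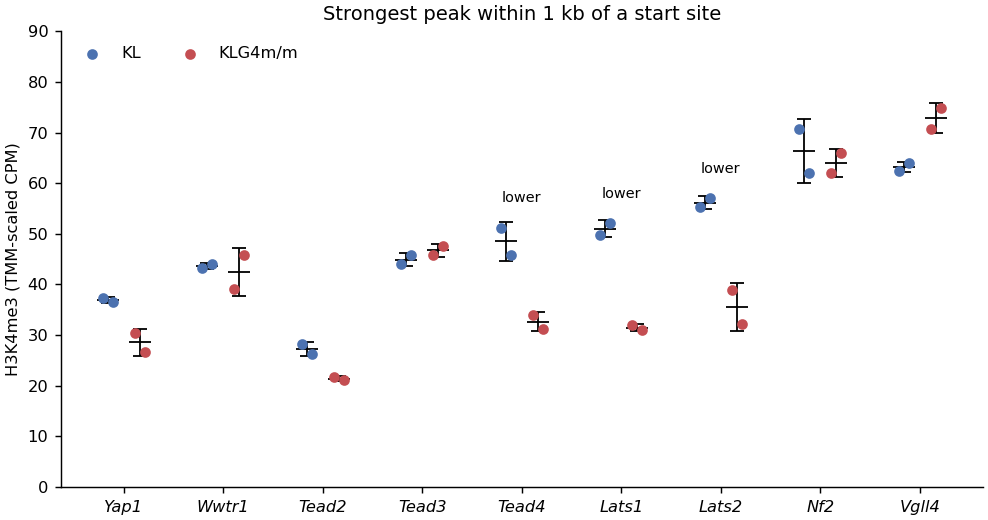
H3K4me3 at the strongest peak within 1 kb of a start site of each member gene, in TMM-scaled CPM (vertical axis, linear from 0), with 2 libraries per group as points, means as bars and the SD as whiskers. At *Tead4*, *Lats1* and *Lats2* (marked lower) all KLG4m/m points sit below all KL points, with group means of 48.5 and 32.6, 51.0 and 31.4, and 56.1 and 35.5.

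*Lats1*, which encodes 1 of the 2 kinases that phosphorylate YAP and TAZ, showed the lowest adjusted p of the members. Its single peak (chr10:7557129-7557529 in the table's coordinates) held 173 and 181 reads in KL and 110 and 100 in KLG4m/m. Both KLG4m/m libraries lay well below both KL libraries. The level fell from 51.0 ± 1.67 to 31.4 ± 0.664 CPM (mean ± SD, n = 2), a log2 fold change of -0.70 with a standard error of 0.13 and a 95% interval of -0.96 to -0.43 (edgeR adjusted p = 0.00107). In these bulk libraries a smaller share of cells that carry the mark and less mark per cell cannot be told apart, here or at any peak below.

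*Lats2*, the paralog with the same role, had 2 listed peaks. The promoter peak (chr14:57983596-57983996) held 192 and 198 reads in KL and 134 and 104 in KLG4m/m, again with no overlap. Its log2 fold change was -0.66 ± 0.13 (SE), with an interval of -0.92 to -0.39 (edgeR adjusted p = 0.00158). The other peak, in intron 2 at 4.23 kb from a start site, held 58 and 56 reads in KL and 46 and 47 in KLG4m/m, a log2 change of -0.24 (edgeR adjusted p = 0.497). The promoter peak passed the test and the intronic peak did not, but the test of a peak against the other peaks of its gene did not separate them (unadjusted p = 0.145 for the intronic peak).

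Peaks close to those of the LATS genes were examined next. Within 50 kb of the *Lats1* peak lay the promoter peaks of *A630066F11Rik*, *Nup43* and *Katna1*, with log2 fold changes between -0.16 and 0.10, none of which passed the threshold. Around the *Lats2* promoter 4 peaks were listed, 1 of which was higher in KLG4m/m. That peak, an intergenic one assigned to *Sap18*, held 34 and 23 reads in KL and 52 and 47 in KLG4m/m, a log2 change of 0.85 (edgeR adjusted p = 0.0264). No listed peak within 50 kb of either LATS promoter was lower by the test.

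*Nf2*, the tumor suppressor that recruits LATS kinases to the membrane, had the highest promoter level after *Vgll4* and changed little. Its peak held 246 and 215 reads in KL and 214 and 213 in KLG4m/m, so the KL libraries differed from each other by more than the groups did. The log2 fold change was -0.05, with an interval of -0.27 to 0.16. A fall as large as that of *Lats1* or *Lats2* lies outside this interval.

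Of the coactivator genes, *Yap1* had 1 peak, at 0.855 kb from a start site, with 130 and 127 reads in KL against 105 and 86 in KLG4m/m. The groups did not overlap, and the log2 fold change was -0.37 ± 0.14 (SE), but the peak did not pass the threshold (unadjusted p = 0.0154, edgeR adjusted p = 0.105). *Wwtr1* held 150 and 153 reads at its promoter peak in KL and 135 and 148 in KLG4m/m, a log2 fold change of -0.04 with an interval of -0.30 to 0.22. Its second peak, in intron 2, was weak (14, 11, 15 and 12 reads across the 4 libraries) and its interval of -0.68 to 1.01 leaves most changes undetectable at this depth. The difference between *Yap1* and *Wwtr1* was not tested.

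Of the TEAD genes with a peak listed under their own symbol, which encode the DNA-binding partners, only *Tead4* passed the threshold. *Tead4* had a promoter peak (chr6:128277137-128277537) with 178 and 159 reads in KL against 117 and 101 in KLG4m/m, and both KLG4m/m values lay below both KL values. Its log2 fold change was -0.57 ± 0.13 (SE), with an interval of -0.84 to -0.30 (edgeR adjusted p = 0.00706). The peak in its intron 1, 14.5 kb from the start site, held 45 and 35 reads in KL and 27 and 34 in KLG4m/m, a log2 fold change of -0.33 with an interval from -0.85 to 0.19 (edgeR adjusted p = 0.441).

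*Tead2*, the weakest of the 9 promoters, held 98 and 91 reads in KL and 75 and 68 in KLG4m/m. The groups did not overlap, with a log2 fold change of -0.34, yet the peak did not pass the threshold (unadjusted p = 0.0423, edgeR adjusted p = 0.185). *Tead3* gave nearly equal values, with 153 and 159 reads in KL against 158 and 154 in KLG4m/m at its promoter and a log2 fold change of 0.06 (interval -0.19 to 0.31). The peak at exon 2 of *Tead3* had 69, 73, 67 and 72 reads and a log2 fold change of 0.03. The interval of the *Tead3* promoter excludes the value measured at *Tead4*, although the difference between these genes was not tested.

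No peak carried the symbol *Tead1*, but 3 listed peaks lay in *Tead1* introns and were assigned to *Gm40451* or *Rassf10*. They were weak, with 10 to 34 reads per library, and their log2 fold changes ran from -0.48 to 0.06, none past the threshold. In the same way 3 peaks in *Wwtr1* introns were assigned to *Tm4sf4* or *Gm16016*. Their log2 fold changes were -0.88 to -0.27, with 10 to 29 reads per library, and none passed the threshold (lowest edgeR adjusted p = 0.126). Another 2 peaks, in intron 2 of *Lats2* and assigned to *Gm26440*, had log2 fold changes of -0.16 and 0.39 and did not pass it either. None of these intronic peaks is counted among the 24 member peaks. A promoter peak beside *Tead1*, at chr7:112278044-112278444 and assigned to *Gm40451*, was lower in KLG4m/m (log2 fold change -0.64, edgeR adjusted p = 0.0347). Whether it marks the start site of *Tead1* was not tested, so nothing is concluded about the *Tead1* promoter.

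**Figure D2:**
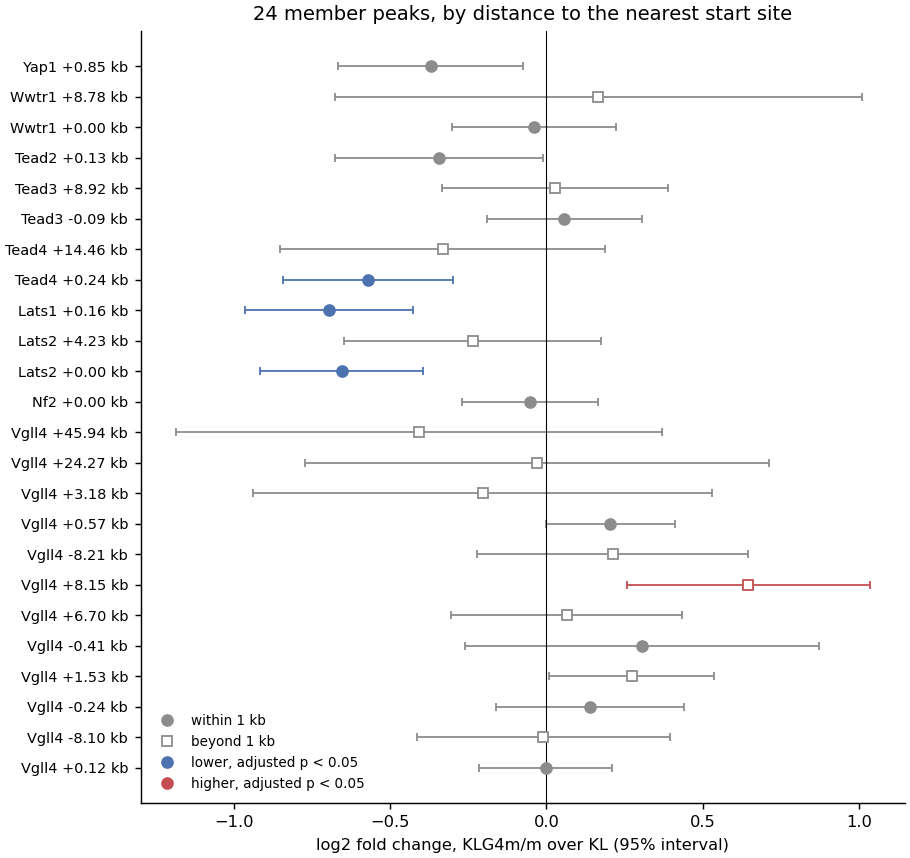
The log2 fold change of KLG4m/m over KL (horizontal axis, with 95% intervals from edgeR) for each of the 24 member peaks, named by gene and signed distance to the nearest start site, with filled circles for peaks within 1 kb and open squares for peaks farther away. The promoter peaks of *Lats1*, *Lats2* and *Tead4* lie between -0.70 and -0.57, and the 1 higher peak is an intronic *Vgll4* peak at 0.65.

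*Vgll4*, whose product competes with YAP and TAZ for TEAD, had 12 listed peaks, a number that 32 genes (0.153% of all genes with a listed peak) reached or exceeded, where the median gene had 1. Of the 12, 4 lay within 1 kb of an annotated start site and 8 did not, and 2 of the latter stood in an intron of the neighbouring *Atg7*. The log2 fold change was above 0 at 7 peaks and below 0 at 5. The highest level was at the promoter peak chr6:114851096-114851496, with 217 and 222 reads in KL against 244 and 242 in KLG4m/m, a log2 fold change of 0.20 (unadjusted p = 0.0518, edgeR adjusted p = 0.207). At the most upstream promoter peak the libraries overlapped, with 234 and 213 reads in KL against 223 and 206 in KLG4m/m.

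The *Vgll4* peak that passed the threshold stood in intron 1 (chr6:114869454-114869854), 8.15 kb from a start site. It held 56 and 45 reads in KL and 81 and 71 in KLG4m/m, with both KLG4m/m values above both KL values. The log2 fold change was 0.65 ± 0.19 (SE), with an interval of 0.26 to 1.03 (edgeR adjusted p = 0.0310). Over the peaks beyond 1 kb of a start site, 3.29% were higher and 2.82% lower.

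The next *Vgll4* peak, 1.45 kb away in the same intron, held 104 and 74 reads in KL and 106 and 73 in KLG4m/m, so that it differed within the groups and not between them. A peak 1.53 kb from another start site held 155 and 145 reads in KL and 159 and 189 in KLG4m/m, without overlap, and did not pass the threshold (log2 fold change 0.27, unadjusted p = 0.0431, edgeR adjusted p = 0.187). The 3 peaks at or beyond the 3′ end of the gene were the weakest, with 12 to 21 reads per library, and the remaining promoter and intronic peaks had log2 fold changes from -0.01 to 0.31. None of the 8 listed peaks within 50 kb of the called peak, all assigned to *Vgll4*, passed the threshold. Tested against the other *Vgll4* peaks, the called peak stood 0.49 higher on the log2 scale (unadjusted p = 0.0126, edgeR adjusted p = 0.236). Across the 20 member peaks of genes with several peaks, none passed this test and 1 had an unadjusted p under 0.05, where 1.29% of the 22232 such peaks passed and 11.6% had an unadjusted p under 0.05.

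**Figure D3:**
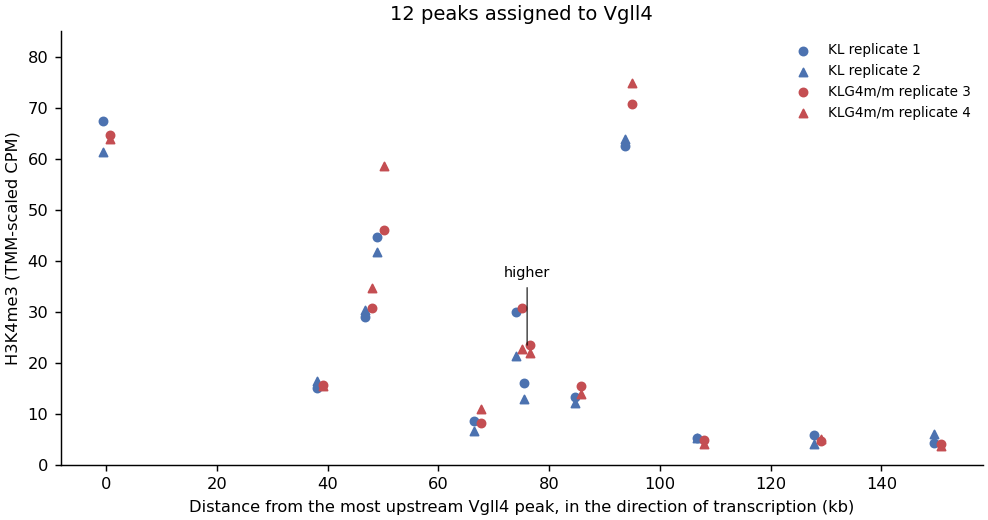
H3K4me3 at the 12 peaks assigned to *Vgll4* in TMM-scaled CPM (vertical axis, linear from 0), against the distance from the most upstream peak in the direction of transcription (kb), with 1 symbol per library. At the peak marked higher the KLG4m/m libraries had a mean of 22.7 CPM and the KL libraries a mean of 14.5 CPM.

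When the reads of all peaks of a gene were summed, *Lats1* (log2 fold change -0.70), *Lats2* (-0.55) and *Tead4* (-0.52) were lower in KLG4m/m and *Vgll4* (0.15) was higher by edgeR's quasi-likelihood test over all genes, and the other 5 genes passed in neither direction. Over all genes, 9.63% were lower and 5.38% higher. *Lats2* had 250 and 254 summed reads in KL and 180 and 151 in KLG4m/m, and *Tead4* had 223 and 194 in KL and 144 and 135 in KLG4m/m. *Vgll4* had 1048 and 979 reads in KL and 1101 and 1064 in KLG4m/m, a 1.11-fold difference whose adjusted p of 0.0490 in edgeR stood just under the threshold. This last call was lost in 9 of the 12 alternatives described at the end.

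The 3 lower promoters did not all depend on the test in the same way. DESeq2, with its own size factors, called none of the 24 member peaks, at adjusted p-values of 0.0703 for *Lats1*, 0.0821 for *Lats2* and 0.228 for *Tead4*, while 3 member peaks were lower and 1 was higher at an unadjusted p under 0.05 (5.03% and 2.68% of all listed peaks). At the gene level DESeq2 called *Lats1* (adjusted p = 0.0290) and *Lats2* (adjusted p = 0.0412) and not *Tead4*, where 1.61% of all genes were lower and 0.570% higher. Over all listed peaks DESeq2 called 0.688% lower and 0.0930% higher. Leaving out either KLG4m/m library left no call in edgeR, at member peaks or at any other listed peak. The log2 fold change of the *Lats1* peak then stayed between -0.73 and -0.66 over the 4 libraries left out in turn, that of *Lats2* between -0.80 and -0.53, and that of *Tead4* between -0.65 and -0.49.

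Other genes of the pathway were taken as lists. All 24 genes of the Hippo cascade above YAP and TAZ had a listed peak, and 6 were lower, none was higher and 18 passed in neither direction by edgeR over all genes, where 9.63% of all genes were lower and 5.38% higher. The median log2 fold change was -0.02, against 0.00 over all genes. At an unadjusted p under 0.05, 8 were lower and 1 was higher, against 16.4% and 12.4% of all genes. DESeq2 called 2 lower (*Llgl1* and *Fat1*) and none higher, against 1.61% and 0.570% of all genes. The core kinases *Stk3* (-0.20) and *Stk4* (0.12) and the adaptors *Mob1a* (-0.18) and *Mob1b* (0.02), which activate LATS, did not pass the threshold. At the peak level, 5 of the list's 58 peaks were lower and 1 was higher, a count near the shares over all listed peaks (5.52% and 3.10%).

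The 6 lower genes were *Sav1*, *Llgl1*, *Fat1*, *Patj*, *Wwc2* and *Dchs1*. *Sav1*, the scaffold that joins MST to LATS, held 57 and 122 reads at its 1 peak in KL and 38 and 23 in KLG4m/m. The groups did not overlap, but the KL libraries differed more than 2-fold. The log2 fold change was -1.50 (interval -1.97 to -1.02, edgeR adjusted p = 1.99e-07 at the gene level), and DESeq2 did not call it (adjusted p = 0.235). It moved between -1.94 and -0.84 when single libraries were left out.

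*Llgl1*, a basolateral polarity gene, held 158 and 160 reads at its promoter in KL and 80 and 52 in KLG4m/m, a log2 change of -1.21 (edgeR adjusted p = 1.94e-05). *Fat1*, an atypical cadherin upstream of the cascade, had a pair of promoter peaks. The stronger in KL held 119 and 146 reads in KL and 58 and 49 in KLG4m/m (log2 fold change -1.25, edgeR adjusted p = 2.95e-05), and the other held 106 and 101 in KL and 84 and 88 in KLG4m/m (-0.21, edgeR adjusted p = 0.421). With 1 peak per gene the gene-level call of *Fat1* was lost (edgeR adjusted p = 0.418 for the nearest and 0.399 for the highest peak).

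The apical polarity gene *Patj* (-0.36), *Wwc2* (-0.38), a relative of the LATS activator KIBRA, and *Dchs1* (-0.63), the cadherin that binds FAT4, were also lower at the gene level. *Dchs1* had 79 and 59 summed reads in KL and 60 and 26 in KLG4m/m, so its groups overlapped. Its log2 fold change was -0.19 without KLG4m/m replicate 4, -0.40 without KL replicate 1 and -1.31 without KLG4m/m replicate 3, and the call was lost in each of these fits and with 1 peak per gene (edgeR adjusted p = 0.0667 for the nearest and 0.0633 for the highest peak). The *Wwc2* call was lost whichever library was left out, with log2 fold changes from -0.52 to -0.25. It was also lost with the nearest peak alone (edgeR adjusted p = 0.554) and kept with the highest (edgeR adjusted p = 0.00320).

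The list of YAP and TAZ targets had a listed peak for 20 of 21 genes, with none under *Ccn2*. Of the 20, 1 was higher and none was lower in edgeR's gene-level test, where 5.38% of all genes were higher and 9.63% lower, and DESeq2 called none. The median log2 fold change was -0.09, against 0.00 over all genes. At an unadjusted p under 0.05, 4 were lower and 2 higher, against 16.4% and 12.4% of all genes, so these counts stood near the background. *Ccn1*, a classical target, held 75 and 66 reads in KL and 54 and 51 in KLG4m/m and did not pass the threshold (log2 fold change -0.37, edgeR adjusted p = 0.193). The higher gene was *Crim1*, whose promoter peak held 179 and 195 reads in KL and 253 and 215 in KLG4m/m (gene-level log2 fold change 0.35, edgeR adjusted p = 0.0114). The promoter peak of *F3*, the tissue factor gene, was also higher as a single peak, with 158 and 164 reads in KL against 214 and 184 in KLG4m/m (log2 fold change 0.36, edgeR adjusted p = 0.0457). At the peak level, 2 of the list's 47 peaks were higher and 0 lower, against 3.10% and 5.52% of all listed peaks, so single calls here are no result about the targets.

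The relatives of *Vgll4* were weakly marked. *Vgll3* held 61 and 79 reads in KL and 57 and 47 in KLG4m/m, *Vgll2* held 11 and 11 in KL and 18 and 6 in KLG4m/m, neither passed the threshold (edgeR adjusted p = 0.194 and 0.845), and no peak was listed under *Vgll1*.

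**Figure D4:**
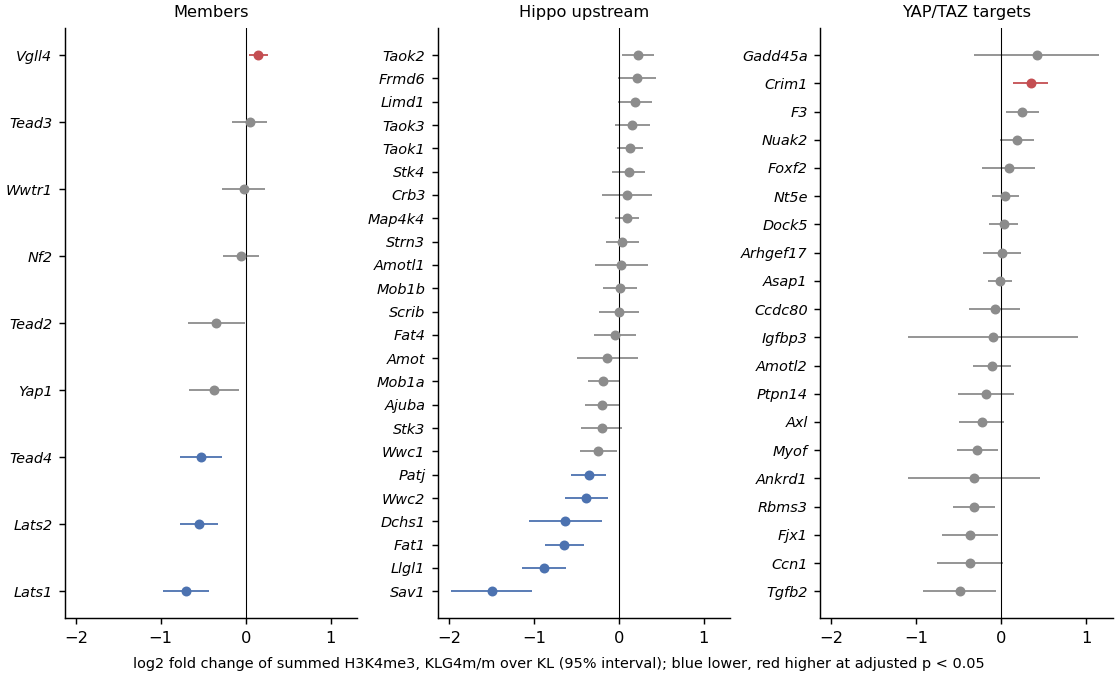
Gene-level log2 fold change of KLG4m/m over KL, from H3K4me3 reads summed over the peaks of each gene (horizontal axis, 95% intervals from edgeR), for the members, the genes upstream of YAP and TAZ, and the YAP and TAZ targets. The lower genes (blue) are 3 members and 6 upstream genes, and the higher genes (red) are *Vgll4* and *Crim1*.

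Markers of the sorted cell type and of other cells were measured in the same libraries. Genes were called by edgeR's gene-level test, where 9.63% of all genes were lower and 5.38% higher. The summed H3K4me3 of 5 epithelial genes was 290.1 and 303 CPM in KL and 251 and 250.1 in KLG4m/m, and 2 of the 5, *Epcam*, the gene of the sorting antigen, and *Cdh1*, were lower (log2 fold change -0.82 and -0.38). The other 3 did not pass, with values of -0.28 for *Krt8*, -0.00433 for *Cldn4* and 0.07 for *Krt18*. At the peak level, 1 of the list's 15 peaks was lower, a count near the share over all listed peaks (5.52%). Of 6 alveolar type 2 genes 5 had a peak and 3 were lower, with sums of 222 and 231 CPM in KL and 164 and 177 in KLG4m/m. The leukocyte list had a peak for 6 of 7 genes, with sums of 192 and 200.4 CPM in KL and 257 and 242 in KLG4m/m, and 2 of the 6 were higher, among them *Itgam* (0.56).

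Of 5 alveolar type 1 genes with a peak 1 was lower (sums of 242 to 248 CPM in KL and 222 to 225 in KLG4m/m), and of 5 endothelial genes 1 was lower (155 to 188 and 146 to 171, overlapping). Of 3 fibroblast genes with a peak 1 was higher (64.6 to 71.7 and 69.5 to 72.8, overlapping). Over all genes, 9.63% were lower and 5.38% higher. These lists are short and no test of them was made, so a single call is no result about a list. No peak was listed under *Sftpc*, *Ager*, *Cd79a*, *Col1a2* or *Col3a1*. *Lats1*, *Lats2* and *Tead4* fell in the same libraries in which the epithelial and alveolar type 2 sums were lower and the leukocyte sum higher, and the part of these markers in the members' differences was not tested.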

How the data were processed

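H3K4me3 was measured by CUT&Tag in 4 libraries, 2 KL and 2 KLG4m/m, and the 4 H3K27ac libraries of the series were not analysed here. Per the submitters' processing notes and the methods, the authors trimmed the reads (Trim Galore 0.6.10), mapped them with BWA 0.7.15, discarded duplicates (Picard 2.17.3) as well as poorly mapped and mitochondrial reads, called peaks with MACS2 2.2.7.1 and assigned them to genes with HOMER 4.11.1. The methods name an Ensembl mouse genome, but the peak positions are not those of GRCm38, and the build is not given in the sources used here. The authors deposited whole-number read counts per library for 35486 listed peaks, without normalization, with the signed distance of each peak to a start site. The deposited columns of CPM and of the authors' own comparison (log2 fold change, average log2 CPM, F, p and FDR) were not used. Whether peaks were called per library or on pooled reads is not given in the sources used here.

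Counts of all listed peaks, without a filter, were scaled by TMM and tested with edgeR 4.0.16 (quasi-likelihood, two-sided, no covariate, Benjamini-Hochberg over all peaks or, for counts summed per gene, over all 20871 genes, threshold 0.05) in R 4.3.3. Scaling to reads in peaks hides a change by the same factor at every peak. A peak was tested against the other peaks of its gene with edgeR's diffSpliceDGE. Intervals are 95% intervals of the fit, and values are means ± SD of TMM-scaled CPM. The common dispersion was 0.00133. Member peaks held 11 to 246 reads per library, so counting error is a larger part of the value at the weaker, intronic ones. In simulated data with these means, 142 of 200 peaks with a mean of at least 10 reads, changed 2-fold among 35486, were recovered with 3 false calls. Every simulated peak was given the common dispersion, without variation particular to a peak or library. The simulation therefore does not measure the false calls in the real counts. With 2 libraries against 2, an exact permutation test of 1 value could not reach the threshold. Alternatives were DESeq2 1.42.0, total reads, RLE factors, a minimum mean of 10 CPM, limma 3.58.1 on log2(CPM + 1) and log2(CPM + 0.25), 1 peak per gene, and each library left out. Figures were drawn with matplotlib 3.10.9.

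The members and the lists of other genes were chosen with earlier results of these data known. All member peaks were counted, and those past the threshold, with an unadjusted p under 0.05, or strongest within 1 kb of a start site were named. Neighbouring peaks are those within 50 kb. From the lists, genes past the gene-level threshold were named, at most 6 per list. *Stk3*, *Stk4*, *Mob1a*, *Mob1b*, *Ccn1*, *F3*, *Vgll2* and *Vgll3*, the other *Tead3*, *Tead4*, *Lats2*, *Vgll4* and *Wwtr1* peaks and the peaks inside *Tead1*, *Wwtr1* and *Lats2* introns were named after their values were seen. Some items that fall under these rules are not reported here.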

Additional observations from a re-analysis of the deposited data

How the results depend on the processing

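The 3 lower and 1 higher calls among the member peaks kept their numbers under total reads, RLE factors, the 10 CPM minimum and both limma fits. DESeq2 gave 0 lower and 0 higher. When 1 library was left out, the lower calls were kept without KL replicate 2 and kept in part without KL replicate 1. They were all lost without KLG4m/m replicate 3 or 4. The higher call was kept only without KL replicate 1. Without KLG4m/m replicate 3 or 4 edgeR kept no call among all listed peaks, and the cause was not tested. In these fits the lone library is assumed to vary like the other group.

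At the gene level the 3 lower members became 2 under DESeq2. In edgeR the lower calls were kept without KL replicate 2 and kept in part without KL replicate 1, where the log2 fold change of *Tead4* was -0.42. They were all lost without KLG4m/m replicate 3 or 4. The 1 higher gene, *Vgll4*, became 0 under DESeq2, total reads, both limma fits, the peak nearest the start site and the peak with the highest mean, and 0 to 1 when a library was left out (1 only without KL replicate 1). With the peak nearest the start site the log2 fold change of *Vgll4* turned to -0.00106, because that peak alone was counted. Upstream of YAP and TAZ, the 6 lower genes became 2 under DESeq2, and some or all of these calls were lost whichever library was left out. The 1 higher target became 0 under DESeq2 and 0 to 1 when a library was left out. Of the other values recomputed, 142 kept direction and side of the threshold, 59 kept direction and lost the threshold and 1 turned. Over all listed peaks DESeq2 called 244 lower and 33 higher, against 1960 and 1099.

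No paired analysis was possible because the KL libraries carry the numbers 1 and 2 and the KLG4m/m libraries the numbers 3 and 4. With 2 libraries a group, a library that stands apart cannot be recognised. Peaks with few reads, such as the intronic *Wwtr1* peak, allow large changes in either direction to go unseen.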

Other observations

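The promoter peak of *Gm40451*, which neighbours *Tead1* in the RefSeq annotation and to which a pair of the peaks in *Tead1* introns was assigned, was lower in KLG4m/m. It held 88 and 111 reads in KL and 77 and 46 in KLG4m/m, so the groups did not overlap (log2 fold change -0.64, edgeR adjusted p = 0.0347). It was picked after its values were seen and is not a member peak. Its distance to the *Tead1* start site was not measured.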
